A study of Mus musculus and Homo sapiens with 41 samples.

Results

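The PAX family comprises 9 transcription factor genes, Pax1 to Pax9 in the mouse, which were taken by name. Their H2AK119ub was described in 2 ways, as the bases covered by peaks within 5 kb of the annotated transcription start site (TSS) and as the share of the gene body covered. All 9 were found among the 21911 mouse protein-coding genes of GENCODE vM21, and all 9 upper-case symbols among the 20007 human genes of GENCODE v44. The study asked how loss of TET2, an enzyme that oxidizes 5-methylcytosine, alters chromatin, and its CUT&Tag series holds 41 libraries. CUT&Tag uses a transposase tethered to an antibody to tag DNA near a chromatin feature. H2AK119ub was profiled in 39 libraries (13 groups of 3) and BAP1 in 2.

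The mouse embryonic stem cell (mESC) groups were WT and Tet2 KO cells without transfection, WT and Tet2 KO cells given a control siRNA (siNC), and Tet2 KO cells given siMbd6 or siNsun2. All mESCs were grown with serum, LIF, 3 μM CHIR99021 and 1 μM PD0325901, and the groups have 1 line per genotype. Feeder cells had been cleared by passaging. The haematopoietic stem and progenitor cell (HSPC) groups were Lin-c-Kit+ bone marrow cells of WT or Tet2-/- mice aged 6 to 8 weeks. They carried a control shRNA (shNC) in both genotypes or shMbd6 in the KO, and had been cultured for 7 days. The K562 groups, from an established human erythroleukaemia line, were WT siNC and TET2 KO siNC, siMBD6 and siNSUN2. No group combined a knockdown with the WT genotype. MBD6 is a partner of the PR-DUB complex, whose enzyme BAP1 removes H2AK119ub, and NSUN2 is an RNA cytosine methyltransferase. The study describes its genome-wide data as biological replicates, and the labels do not say which culture or animal each library came from.

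In mm10, Pax1 (ENSMUSG00000037034.16) lies at chr2:147361925-147393295, Pax2 (ENSMUSG00000004231.15) at chr19:44756045-44837871, Pax6 (ENSMUSG00000027168.21) at chr2:105668900-105697364 and Pax9 (ENSMUSG00000001497.18) at chr12:56691767-56712822, all on the + strand. Pax3 (ENSMUSG00000004872.15) lies at chr1:78101267-78197134, Pax4 (ENSMUSG00000029706.15) at chr6:28442334-28449353, Pax5 (ENSMUSG00000014030.15) at chr4:44524757-44710487, Pax7 (ENSMUSG00000028736.13) at chr4:139737062-139833528 and Pax8 (ENSMUSG00000026976.15) at chr2:24420560-24475599, on the - strand. Their lengths run from 7.02 kb (Pax4) to 186 kb (Pax5). Peaks carry no strand, so a peak over an antisense or overlapping gene is counted here too.

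PAX proteins bind DNA through a paired domain and act as regulators of organ formation in the embryo. Polycomb repressive complex 1 (PRC1) places the H2AK119ub mark, ubiquitin on histone H2A, and in embryonic stem cells this mark is known from the promoters of silent developmental regulators, PAX genes among them. Pax1 and Pax9 act in the sclerotome and the pharyngeal pouches. Pax2 and Pax8 act in the kidney, with Pax8 also needed for the thyroid. Pax3 and Pax7 act in neural crest and skeletal muscle. Pax4 and Pax6 act in the endocrine pancreas, with Pax6 also a master regulator of the eye. Pax5 maintains B cell identity.

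The values are lengths of listed peaks. Sequencing depth is unknown, so a value of 0 means that no peak was listed and can reflect either no mark or too few reads. Fewer marked cells and less mark per cell cannot be told apart in these bulk libraries. The lists differed widely in size. Untransfected mESC and WT siNC libraries covered 9.66 to 17.0 Mb with 24360 to 37392 peaks. The Tet2 KO siRNA libraries covered 1.82 to 5.64 Mb, HSPC libraries 0.648 to 3.95 Mb and K562 libraries 0.775 to 1.74 Mb. In each mESC group replicate 1 covered the least. Peaks hold no expression, so for the labelled cell types only the H2AK119ub listed at marker windows can be given. Of 7 HSPC markers, 0 or 1 was covered in HSPC libraries and 3 to 6 in untransfected mESC libraries. Of 7 pluripotency markers, 3 to 5 were covered in untransfected mESC libraries and 0 to 2 in HSPC libraries. Both lists were covered more in mESCs, so these windows do not check the labels. Feeder fibroblast markers were covered in 3 to 5 of 6 windows in untransfected mESC libraries and mature blood markers in 0 to 2 of 5.

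In untransfected WT mESCs every PAX window carried H2AK119ub in at least 2 of 3 libraries, in short patches that left most of the window free. The number of the 9 windows covered was 5, 9 and 9 in replicates 1, 2 and 3. Over all genes 48.7% to 58.6% of windows were covered in these libraries. Pax8 led with 0.444, 0.759 and 0.963 kb of its 10-kb window. Its mean was above that of 92.0% of all mouse windows. Pax6 followed with 0.437, 0.855 and 0.351 kb. Both ranges overlapped. Pax1 had 0.431, 0.493 and 0.489 kb. Pax9, its relative in the sclerotome, had 0.379, 0.466 and 0.396 kb. Pax4 had 0.379, 0.372 and 0.338 kb. Those 3 genes were even across libraries. The other 4 were listed at 0 in replicate 1. They were Pax5 with 0.571 and 0.391 kb in replicates 2 and 3, Pax7 with 0.209 and 0.540 kb, Pax2 with 0.247 and 0.5 kb, and Pax3 with 0.204 and 0.278 kb. No pair of neighbours in this order had ranges apart from each other.

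Over the gene bodies the order differed. Pax6 was covered over 0.885%, 6.52% and 5.95% of its length in WT replicates 1, 2 and 3. Pax9 had 3.31%, 4.02% and 4.55%, and Pax1 had 3.69%, 3.54% and 4.55%. Each mean exceeded that of at least 87.7% of all genes. Pax8 came next with 1.42%, 2.21% and 2.92%, below the range of Pax1. The long genes Pax7, Pax2, Pax5 and Pax3 averaged 1.67%, 1.63%, 1.26% and 0.728%. Pax4 was listed at 0 over its body in every library, mouse and human, and its stretch of peaks in mESCs lay upstream of the start.

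The H2AK119ub of the PAX windows lay largely away from the 1 GENCODE gene start used here. In untransfected WT mESCs 32.5% of the bases covered in the 9 windows were within 1 kb of the TSS, against 75.5% over all protein-coding genes. In untransfected KO cells these shares were 42.5% and 76.2%, and in WT siNC cells 41.1% and 75.1%. The PAX windows instead held bases 1 to 4 kb upstream and 3 to 5 kb downstream, where windows of other genes held few. This depends in part on the start chosen, because the recurrent stretches 3 to 5 kb downstream lay at other annotated transcript starts. The centre of that of Pax9 was 0.0165 kb and that of Pax2 0.0450 kb from such a start. Upstream stretches of Pax4, Pax5 and Pax6 were 1.30, 3.52 and 2.15 kb from the nearest annotated start of their gene. These shares rest on 9 genes and are a description.

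**Figure D1:**
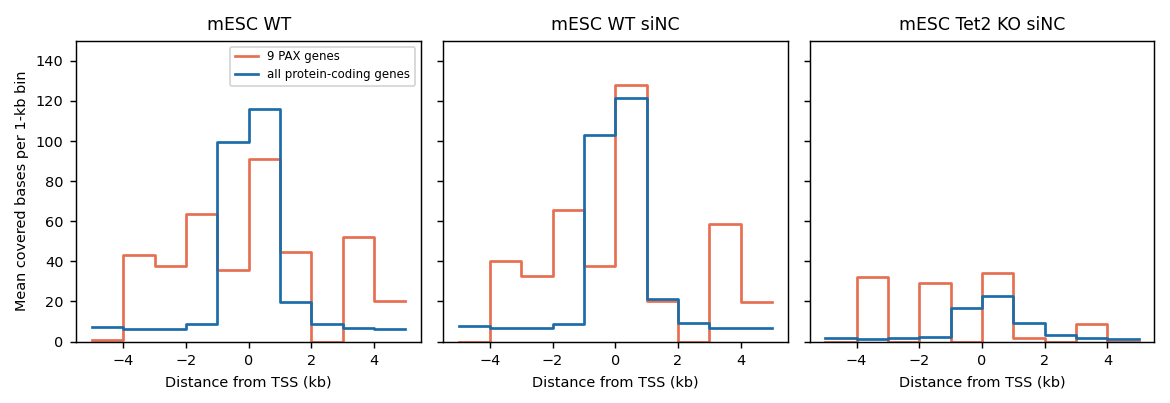
Mean bases covered by H2AK119ub peaks in each 1-kb bin from 5 kb upstream to 5 kb downstream of the TSS, for the 9 PAX genes (orange) and all protein-coding genes (blue), averaged over the 3 libraries of WT, WT siNC and Tet2 KO siNC mESCs (left to right). All genes peak at the start, whereas PAX genes also carry covered bases 1 to 4 kb upstream.

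To see which places recurred, stretches of at least 100 bases covered in at least 2 of the 3 untransfected WT libraries were taken within each gene and 5 kb around it. The WT libraries thus chose them. There were 28 in all, 7 at Pax5, 4 each at Pax2 and Pax7, 3 each at Pax1, Pax6 and Pax8, 2 at Pax9 and 1 each at Pax3 and Pax4. Of these, 14 were intronic, 7 touched a coding exon, 3 touched a UTR or non-coding exon and 4 lay upstream of the gene. Their median length was 372.5 bases with 58.7% G and C. Over all 20865 stretches found the same way near protein-coding genes the medians were 365 bases and 59.2%. The observed to expected ratio of CpG was 0.451 at PAX stretches and 0.517 at all stretches. None of the 28 PAX stretches was mostly soft-masked (repeat) sequence, against 6.504% of all stretches. RefSeq (GRCm38.p6) gives 10 promoters of 300 bases for 7 PAX genes. Their median CpG ratio was 0.689, against 0.384 over all 32851 promoters. Of the 10, 1 was overlapped by a stretch (the share over all promoters was not computed), namely the promoter of Pax9 (chr12:56695221-56695520). The stretch there ran from 3.67 to 4.11 kb past the GENCODE start and carried a fold enrichment of 2.95 to 4.07 in the WT libraries.

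The 5 stretches below are shown as examples of stretches that stayed in KO siNC libraries and of stretches that were absent there, in the strand of the gene from the GRCm38 (mm10) sequence of RefSeq, with CpG dinucleotides in capitals. The first was present in all 18 mESC libraries. It touches a coding exon of Pax1 (+ strand), and its central 300 bases are chr2:147373492-147373791.
Pax1, 11.7 kb past the start: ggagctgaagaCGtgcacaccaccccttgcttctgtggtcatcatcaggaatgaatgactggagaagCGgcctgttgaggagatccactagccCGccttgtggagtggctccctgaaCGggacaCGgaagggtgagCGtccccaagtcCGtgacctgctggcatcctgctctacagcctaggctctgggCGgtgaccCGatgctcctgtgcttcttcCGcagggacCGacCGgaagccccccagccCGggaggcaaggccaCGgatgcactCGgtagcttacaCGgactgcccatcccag
The next lies in an intron of Pax5 (- strand), at chr4:44557894-44558193, and was the other one present in at least 2 of 3 KO siNC libraries.
Pax5, 152.4 kb past the start: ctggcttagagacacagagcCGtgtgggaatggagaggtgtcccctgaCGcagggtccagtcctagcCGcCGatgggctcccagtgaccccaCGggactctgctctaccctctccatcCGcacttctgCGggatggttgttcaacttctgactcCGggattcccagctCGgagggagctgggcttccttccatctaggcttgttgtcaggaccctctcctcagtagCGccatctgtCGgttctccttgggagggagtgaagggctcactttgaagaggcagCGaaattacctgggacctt
The following 3 were present in every WT siNC library or 2 of them and in no KO siNC library. That of Pax6 (+ strand) is upstream of the gene at chr2:105666606-105666905.
Pax6, at -2.1 kb from the start: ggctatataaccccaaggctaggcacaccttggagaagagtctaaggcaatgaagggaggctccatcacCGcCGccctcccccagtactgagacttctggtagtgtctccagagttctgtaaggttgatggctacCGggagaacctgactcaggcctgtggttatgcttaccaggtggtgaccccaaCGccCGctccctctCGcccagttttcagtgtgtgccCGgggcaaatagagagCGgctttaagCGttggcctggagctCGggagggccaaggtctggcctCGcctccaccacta
That of Pax7 (- strand) is upstream at chr4:139834068-139834208.
Pax7, at -0.6 kb from the start: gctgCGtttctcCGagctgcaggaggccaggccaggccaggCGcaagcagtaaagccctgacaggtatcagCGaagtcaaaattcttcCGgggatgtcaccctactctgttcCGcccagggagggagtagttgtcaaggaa
That of Pax9 (+ strand), which lies outside its TSS window and bears on the body value, includes part of a coding exon at chr12:56699953-56700252.
Pax9, 8.3 kb past the start: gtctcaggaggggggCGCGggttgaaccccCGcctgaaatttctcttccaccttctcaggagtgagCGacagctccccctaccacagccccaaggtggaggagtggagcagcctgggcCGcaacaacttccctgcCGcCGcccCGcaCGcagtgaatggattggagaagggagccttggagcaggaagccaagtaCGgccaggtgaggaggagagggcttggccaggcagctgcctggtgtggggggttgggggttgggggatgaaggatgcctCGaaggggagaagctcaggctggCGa
The printed runs hold 16 CpG at Pax1, 12 at Pax5, 11 at Pax6, 6 in the 141 bases at Pax7 and 12 at Pax9.

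Tet2 loss left the PAX windows without a called change in untransfected mESCs. Of 9 members tested none was called (0.0234% of all 12820 windows were called, 3 in number), and none had an unadjusted p under 0.05, against 710 windows overall. Adjusted p ranged from 0.933 to 0.984 (limma with Benjamini-Hochberg adjustment). Pax6 had 0.360, 0.000 and 0.257 kb in KO replicates 1, 2 and 3, against 0.437, 0.855 and 0.351 kb in WT. The difference was -0.342 ± 0.164 kb (SE; adjusted p = 0.933 by limma). Pax8 had 0.000, 1.35 and 1.62 kb in KO cells. Its difference from WT was 0.266 ± 0.428 kb (SE; adjusted p = 0.968 by limma). In both genes the WT and KO ranges overlapped. Pax5 had 0.502, 0.579 and 0.586 kb in KO cells and Pax9 had 0.446, 0.490 and 0.506 kb. The KO libraries covered 8, 6 and 9 of the 9 windows. Of 8 gene bodies tested none was called, beside 0.442% of all 13126 bodies, and adjusted p ranged from 0.963 to 0.999 by limma. No body had an unadjusted p under 0.05, against 825 over all genes. Of the 28 stretches, 25 were in at least 2 of 3 KO libraries. KO libraries held 81.0% of PAX stretches on average and 73.9% of all stretches.

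With siNC the PAX windows of KO cells were mostly listed at 0. KO siNC libraries covered 1, 3 and 2 of the 9 windows and WT siNC libraries 5, 8 and 9. Over all genes, 8.30% to 16.2% of windows were covered in KO siNC and 47.6% to 58.6% in WT siNC libraries. Pax9 had 0.431, 0.686 and 0.678 kb in WT siNC cells and was listed at 0 in all 3 KO siNC libraries. The difference was -0.598 ± 0.147 kb (SE; adjusted p = 0.00495 by limma). Pax6 had 0.314, 0.549 and 0.396 kb in WT siNC and was again listed at 0 in KO siNC. It differed by -0.420 ± 0.0984 kb (SE; adjusted p = 0.00379 by limma). Pax7, which specifies muscle satellite cells, had 0.232, 0.254 and 0.357 kb in WT siNC and 0 in KO siNC. Its difference was -0.281 ± 0.0681 kb (SE; adjusted p = 0.00453 by limma). In these 3 genes the groups did not overlap. How many of all windows were likewise apart was not counted. Since all 3 KO siNC values of these genes are 0, that group has no spread of its own, and the p-values can be too small.

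The remaining members were not called. Pax8 kept peaks in 2 KO siNC libraries, with 0.000, 0.454 and 0.518 kb against 0.242, 1.41 and 1.02 kb in WT siNC, and its groups overlapped. Pax5 had the smallest difference, with 0.587, 0.278 and 0.000 kb in KO siNC and 0.253, 0.327 and 0.504 kb in WT siNC. Its difference was -0.0730 ± 0.157 kb (SE; adjusted p = 0.674 by limma). Pax4, known from pancreatic beta cells, had 0.000, 0.595 and 0.809 kb in WT siNC. In KO siNC it was listed in replicate 3 alone, at 0.791 kb. Pax1 had 0.000, 0.416 and 0.512 kb in WT siNC and 0.000, 0.235 and 0.000 kb in KO siNC. Pax2 had 0.000, 0.337 and 0.219 kb in WT siNC and was listed at 0 in KO siNC. Pax3 was covered in 1 of 12 libraries of this experiment, WT siNC replicate 3 (0.330 kb), and did not pass the filter of 3 covered libraries.

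Thus 3 of the 8 PAX windows tested were called lower in KO siNC cells, whereas 71.9% of all 10756 windows were. Windows that passed the filter through WT siNC alone are among the 10756, and their number was not counted. The median difference was -0.256 kb over the PAX windows and -0.418 kb over all windows. The lists of the compared groups differed in total length as well, with 1.82 to 4.30 Mb covered in KO siNC and 10.0 to 17.0 Mb in WT siNC. When every library was scaled to equal covered length, none of the 8 was called, the medians were -0.0370 and -0.145 kb, and of all windows 3852 were called lower and 284 higher, from 7732 and 23 as listed. Per Mb covered, the 9 windows summed to 0.147 to 0.300 kb in WT siNC and 0.225 to 0.323 kb in KO siNC, ranges that overlap. A lower H2AK119ub level at these genes and a shorter list of peaks cannot be told apart here. Without WT siNC replicate 1, 6 of 8 were called, with Pax1, Pax2 and Pax8 added.

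**Figure D2:**
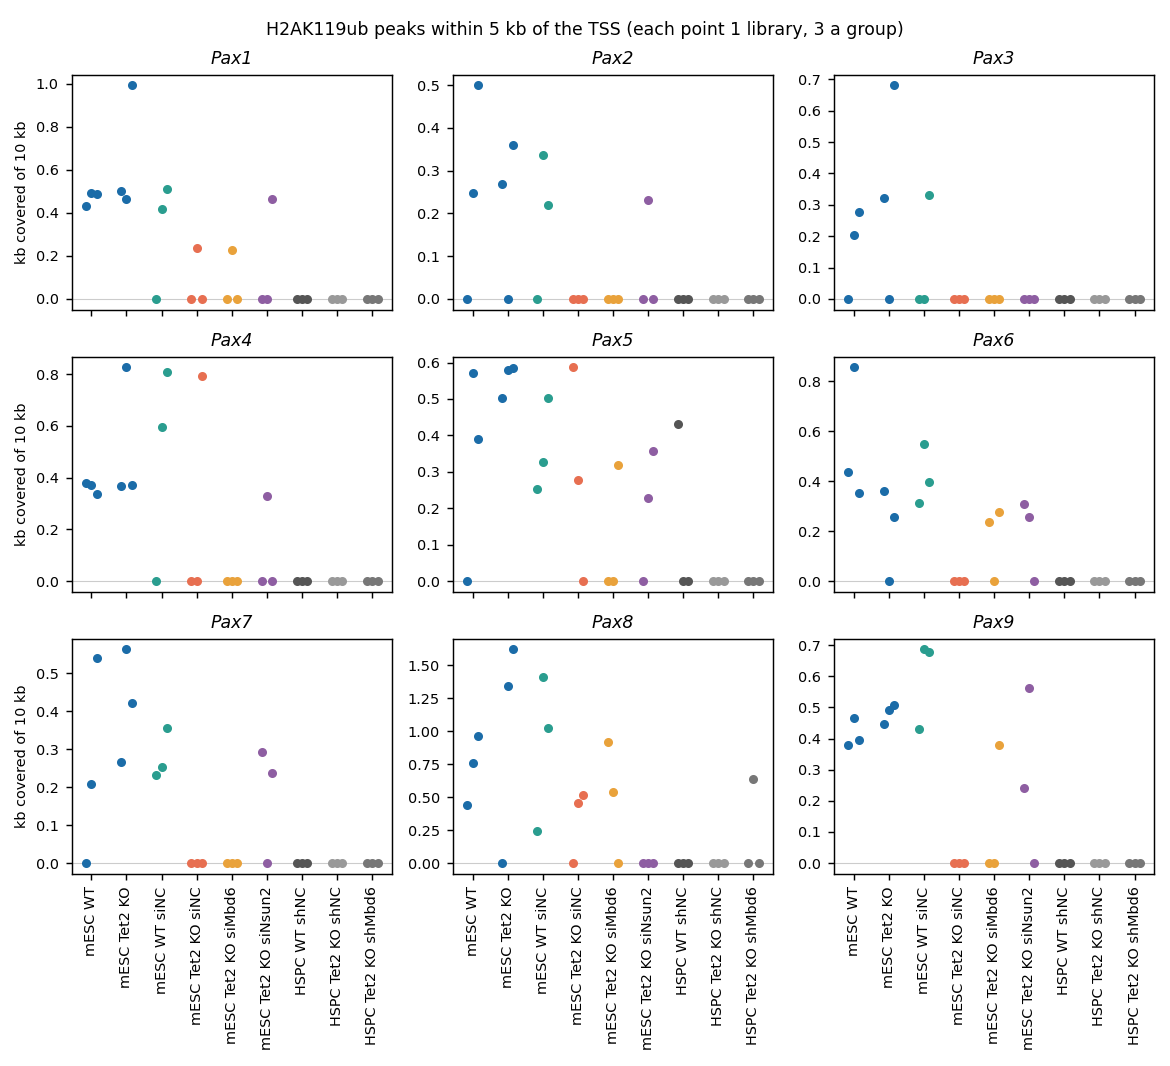
Covered kb of the 10-kb TSS window (vertical axis, a scale for each gene) for the 9 PAX genes in the 9 mouse H2AK119ub groups, each point 1 library. Pax6, Pax7 and Pax9 are at 0 in all 3 Tet2 KO siNC libraries, and HSPC libraries hold 2 points above 0.

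Gene bodies gave the larger count. Of 8 members tested, 7 were called lower in KO siNC than in WT siNC cells, beside 66.6% of all 11195 bodies. The call of Pax3 followed from the filter, since its body was covered in the 3 WT siNC libraries and in no other library of the experiment. Without it 6 of 7 were called lower, while the 66.6% still includes every body that passed the filter in the same way. Pax6 had 6.00%, 5.30% and 5.73% of its body covered in WT siNC and 1.30%, 0.829% and 2.16% in KO siNC. The difference was -4.25 ± 0.607 points (SE; adjusted p = 0.000338 by limma). Pax2 had 1.16%, 2.33% and 1.94% in WT siNC and was listed at 0 in all KO siNC libraries. It differed by -1.81 ± 0.260 points (SE; adjusted p = 0.000354 by limma). This p-value can be too small, because KO siNC has no spread of its own there. Pax9 had 3.27%, 5.12% and 5.44% in WT siNC, and 1.57% in KO siNC replicate 3 with 0 in the others. Pax5 fell from 0.847%, 1.33% and 1.86% to 0.000%, 0.330% and 0.482%. Pax7 and Pax3 were listed at 0 in all KO siNC libraries, from 0.811% to 2.13% and 0.353% to 0.756% in WT siNC. Pax8 was at the edge of the threshold (adjusted p = 0.0482 by limma; 0.00538 to 0.863 over the alternatives), with overlapping ranges, and the call was lost on leaving out 5 of the 6 libraries in turn.

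The body of Pax1 was not called, where 66.6% of all bodies tested were called lower. It was covered over 1.61%, 3.77% and 5.18% in WT siNC and 1.42%, 1.94% and 3.25% in KO siNC, ranges that overlap. The difference was -1.31 ± 0.939 points (SE; adjusted p = 0.234 by limma). Over 10 alternatives the adjusted p of the Pax1 body ran from 0.0420 to 0.675 by limma, with 2 of them under the threshold. The stretch 11.7 kb past the start of Pax1, printed above, was present in 3 of 3 libraries of every mESC group. How many of all stretches were as persistent was not counted. After scaling to equal covered length the Pax1 body was 2.71 ± 0.950 points higher in KO siNC (SE; adjusted p = 0.0564 by limma), and 2 members were called lower, Pax2 and Pax3, the latter subject to the same filter.

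**Figure D3:**
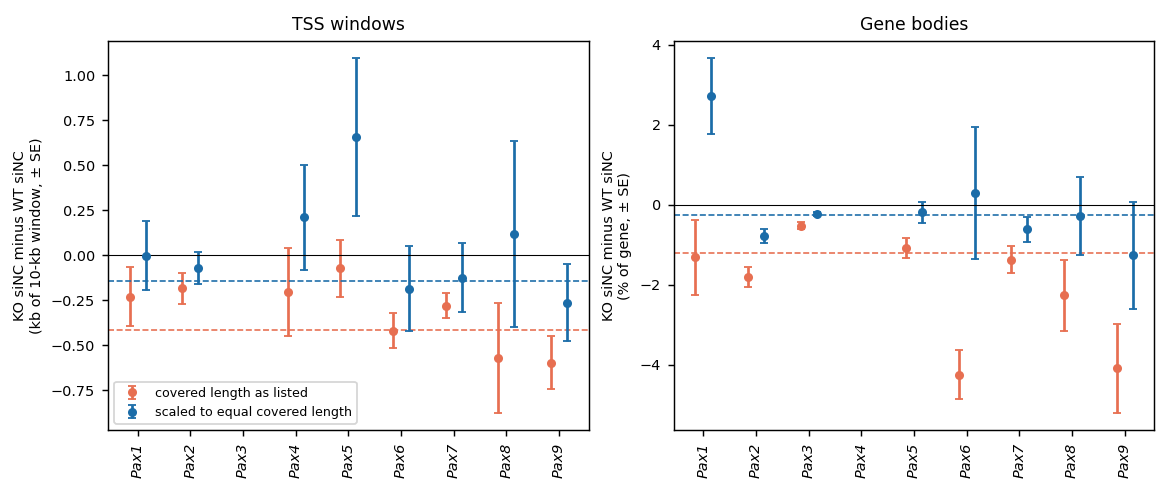
Difference between Tet2 KO siNC and WT siNC mESCs with its SE for each PAX gene tested, in kb of the TSS window (left) and percent of the gene body (right). Orange points use lengths as listed, blue points lengths scaled to equal covered length, and dashed lines mark the median over all genes tested; the orange points lie below 0 and several blue points lie above it.

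Among the 28 stretches, WT siNC libraries held 13 to 25 and KO siNC libraries 2 to 5. The mean share in KO siNC was 10.7% of PAX stretches and 13.3% of all 20865 stretches. In WT siNC it was 73.8% and 77.7%. The 2 that were in at least 2 of 3 KO siNC libraries were those of Pax1 at 11.7 kb and Pax5 at 152.4 kb. The matching count over all stretches was not made. Stretches lost from all KO siNC libraries included both at Pax9, all 3 at Pax6, all 4 at Pax2 and all 4 at Pax7.

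**Figure D4:**
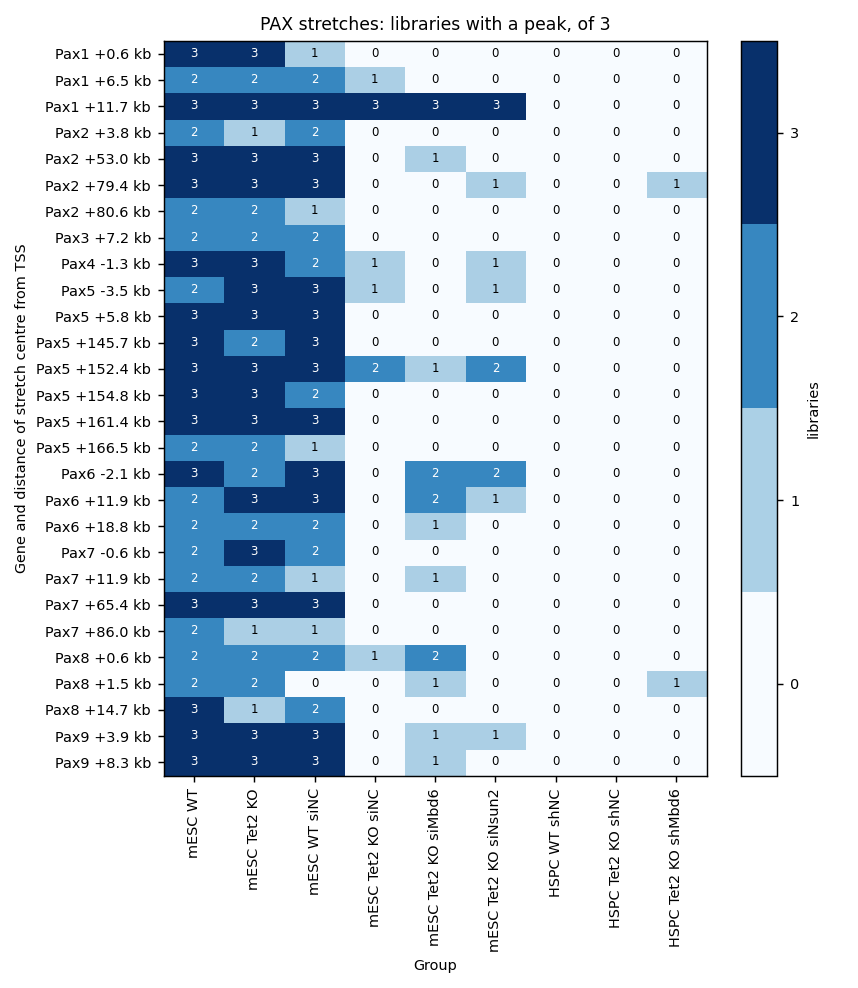
Number of libraries (0 to 3, darker for more) in which at least 50% of each PAX stretch was covered, for 28 stretches named by gene and distance from the TSS (rows) and 9 mouse groups (columns). The row of Pax1 at 11.7 kb holds 3 in every mESC group, and the HSPC columns are at 0 apart from 2 entries of 1.

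The effect of Tet2 loss at PAX windows was compared between siNC and untransfected mESCs in 1 model over the 18 H2AK119ub libraries of mESCs. Of 9 members tested, 2 had a lower KO effect with siNC, beside 45% of all 13874 windows. At Pax9 KO minus WT was lower with siNC than without transfection, by a difference of -0.665 ± 0.176 kb (SE; adjusted p = 0.00752 by limma). At Pax7 the difference was -0.448 ± 0.161 kb (SE; adjusted p = 0.0360 by limma), and leaving out any of 9 of the 12 libraries compared raised its adjusted p past 0.05. Pax9 and Pax7 were at 0 in all KO siNC libraries, so these p-values can be too small as well. Pax6 did not differ by the test (-0.0777 ± 0.186 kb, SE; adjusted p = 0.733 by limma). All 9 differences were negative. Their median was -0.363 kb, and that over all windows was -0.396 kb. With equal covered length none of the 9 was called.

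Knockdown of Mbd6 in KO mESCs brought no called change at PAX genes. Of 8 windows tested none was called (0.177% of all 10756), and of 8 bodies none (0.0715% of all 11195). The Pax2 and Pax7 windows and the Pax3 body were listed at 0 in both groups compared, so these could not be called. No PAX window and no PAX body had an unadjusted p under 0.05, while 460 windows and 290 bodies did over all genes. siMbd6 libraries covered 2, 2 and 3 of the 9 windows and 2.36 to 5.64 Mb in all. Pax6 reappeared in 2 libraries with 0.238, 0.000 and 0.278 kb, from 0 in KO siNC. The difference was 0.172 ± 0.0984 kb (SE; adjusted p = 1.0 by limma). Pax8 had 0.921, 0.540 and 0.000 kb, overlapping KO siNC. Pax9 had 0.380 kb in replicate 3 alone. Pax2, Pax3, Pax4 and Pax7 were listed at 0 in all siMbd6 libraries. Of the 28 stretches, 4 were in at least 2 siMbd6 libraries, namely 2 at Pax6, 1 at Pax8 and that of Pax1 at 11.7 kb. The mean share present was 19.05%, beside 17.7% of all stretches.

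After knockdown of Nsun2 no PAX gene was called either. None of 8 windows was called (0.0186% of all 10756) and none of 8 bodies (0.00893% of all 11195). The Pax3 body was again listed at 0 in both groups compared, so it could not be called. Pax7 had 0.294, 0.000 and 0.238 kb in siNsun2 libraries, from 0 in KO siNC. Its difference was 0.177 ± 0.0681 kb (SE; adjusted p = 1.0 by limma). It was the 1 PAX window under 0.05 before adjustment, as were 267 windows over all genes. Pax9 had 0.242, 0.561 and 0.000 kb and differed by 0.268 ± 0.147 kb (SE; adjusted p = 1.0 by limma). Pax6 had 0.308, 0.258 and 0.000 kb and Pax5 0.000, 0.227 and 0.357 kb. Pax8 was listed at 0 in all 3 libraries, from 0.000, 0.454 and 0.518 kb in KO siNC, and the groups overlap. No PAX body had an unadjusted p under 0.05, and 155 bodies did over all genes. The siNsun2 libraries covered 3, 5 and 3 of the 9 windows. Both knockdowns share the KO siNC libraries with the KO against WT comparison. The p-values measure 3 libraries against 3, and in each knockdown group the Pax1 body remained covered, over 1.88% to 2.93% with siMbd6 and 1.44% to 3.47% with siNsun2.

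**Figure D5:**
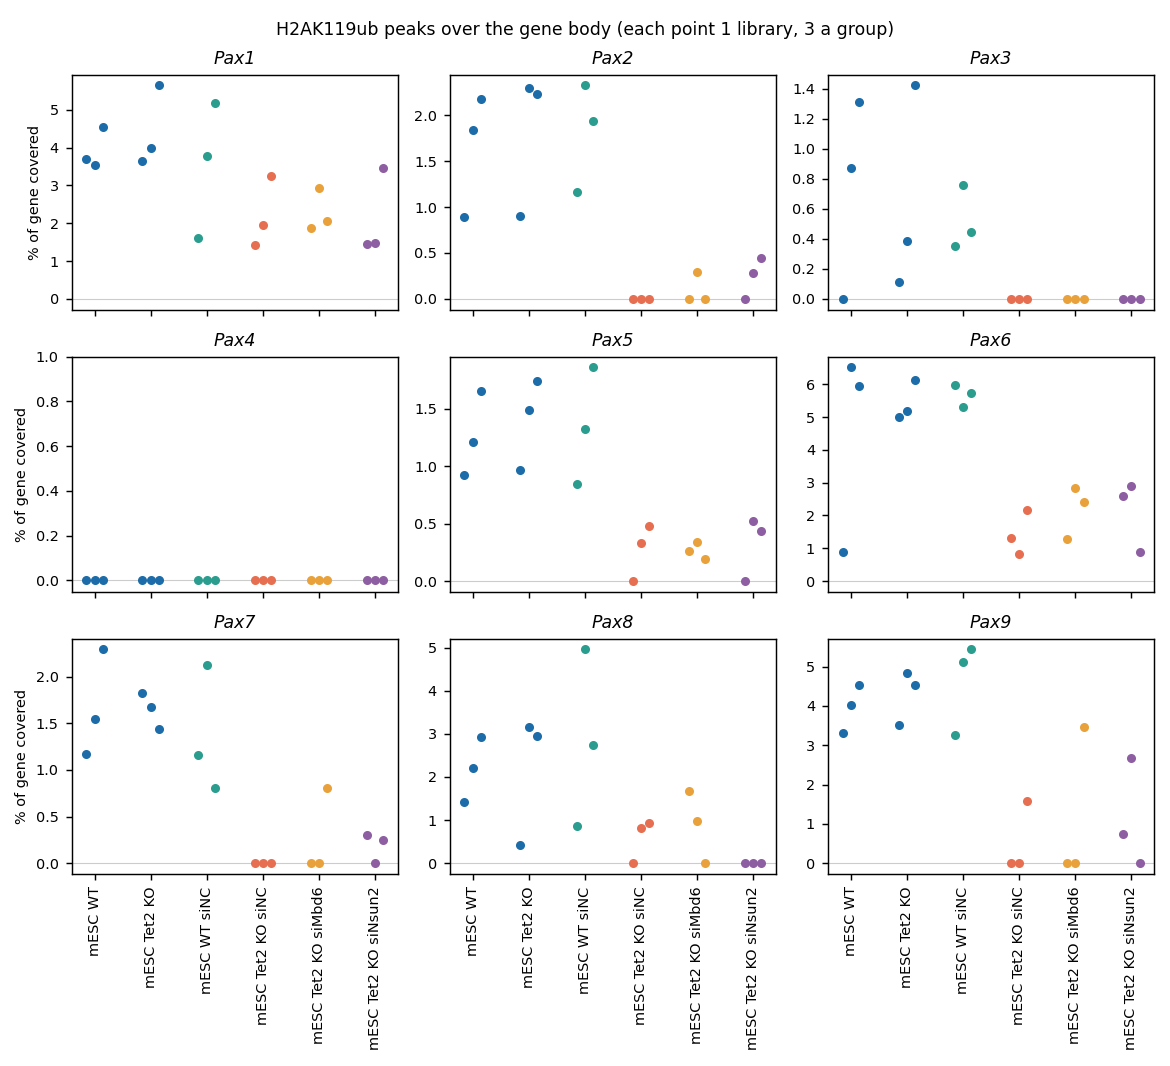
Percent of the gene body covered by H2AK119ub peaks (vertical axis, a scale for each gene) for the 9 PAX genes in the 6 mESC groups, each point 1 library. Pax1 and Pax6 are above 0 in every library, and Pax4 is at 0 throughout.

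HSPCs carried almost no listed H2AK119ub at PAX genes. Among 9 libraries and 9 genes, 2 windows were covered. They were Pax5, the B cell factor, in WT shNC replicate 1 (0.432 kb) and Pax8 in KO shMbd6 replicate 2 (0.635 kb). No window or body passed the filter of 3 covered libraries, so none was tested. Over all genes 22.7% of 4242 windows were called between KO and WT shNC, and 72.1% between shMbd6 and shNC in the KO. The lists of these groups differed in length too. KO shNC libraries covered 0.648 to 0.681 Mb, WT shNC 1.89 to 2.24 Mb and KO shMbd6 3.43 to 3.95 Mb. WT shNC libraries covered 12.1% to 14.5% of all windows, KO shNC libraries 2.42% to 2.72% and KO shMbd6 libraries 23.3% to 24.7%. Over bodies, Pax9 was covered in KO shNC replicate 3 (1.40%). Pax8, Pax2 and Pax5 were covered in KO shMbd6 replicate 2 (1.15%, 0.352% and 0.173%). None of the 28 mESC stretches was present in any shNC library. KO shMbd6 libraries held 0 to 2 of them, a mean of 2.38%, where 19.9% of all stretches were present. WT shNC libraries held 11.0% of all stretches. With siNC, KO mESC libraries of 1.82 to 4.30 Mb held 2 to 5 of the 28, while KO shMbd6 HSPC libraries of 3.43 to 3.95 Mb held 0 to 2. Of all stretches these groups held 13.3% and 19.9% on average. WT mESC libraries chose the stretches, so mESC and HSPC lists are not compared on equal terms. The part of list size was not tested. The cell types were profiled in separate experiments, so cell type and experiment cannot be told apart.

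In K562 cells PAX9 was the 1 member whose window passed the filter, covered in 3 of 12 libraries. It was listed at 0 in WT siNC and KO siNC, at 0.266 kb in siMBD6 replicate 2, and at 0.344 and 0.269 kb in siNSUN2 replicates 1 and 2. Between KO and WT no call was possible, because both groups were at 0 (0.122% of 2457 windows called). It was not called after siMBD6 (0% called) or siNSUN2 (0% called). The window had passed the filter through knockdown libraries alone, which these knockdown comparisons use. No window was called in either knockdown by limma, while 264 and 362 had an unadjusted p under 0.05. The difference after siNSUN2 was 0.204 ± 0.101 kb (SE; adjusted p = 0.341 by limma). Over bodies PAX9 and PAX5 were tested. PAX5 had 0.000%, 0.144% and 0.175% in KO siNC, 0.146%, 0.000% and 0.149% in siMBD6, and 0.000%, 0.142% and 0.000% in siNSUN2, with 0 in all WT siNC libraries. Neither was called in any of the 3 comparisons, beside 0.135%, 0.64% and 1.18% of 2970 bodies. The PAX9 body was listed at 0 in all WT siNC and KO siNC libraries too, so no call was possible between them. The other 7 PAX genes were listed at 0 in window and body in all 12 libraries, in which 5.02% to 12.4% of all windows were covered.

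The wider pathways were followed through 7 lists of genes that work beside PAX factors. In untransfected mESCs none of their 78 tested members was called, beside 0.0234% of all 12820 windows. Between KO and WT siNC cells each list had members called lower and none called higher, while 71.9% of all 10756 windows were called lower. The PAX-SIX-EYA-DACH network, which cooperates in eye, ear and kidney, had 6 of 10 tested called lower, with a median difference of -0.379 kb. Six6, an eye field factor, had 0.778, 0.778 and 0.842 kb in WT siNC and 0.000, 0.358 and 0.000 kb in KO siNC, with a difference of -0.680 ± 0.200 kb (SE; adjusted p = 0.0122 by limma). Eye and neural regulators had 5 of 14 called lower (median -0.329 kb). Mitf, of pigment cells and the retinal pigment epithelium, had a difference of -0.864 ± 0.166 kb (SE; adjusted p = 0.00118 by limma). Where a list gene was at 0 in all libraries of a group, its p-value can be too small. Mitf, Mafa and Foxc2 were so in KO siNC. Neural crest and muscle regulators had 5 of 10 (median -0.323 kb), among them the neural crest factor Snai2 at -0.828 ± 0.240 kb (SE; adjusted p = 0.0115 by limma).

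Kidney and thyroid genes had 7 of 13 called lower (median -0.361 kb), against the 71.9% of all windows. Slc5a5, the iodide transporter and a known target of Pax8, had the largest difference of those called in the list, at -1.06 ± 0.220 kb (SE; adjusted p = 0.00190 by limma). Tshr, the thyrotropin receptor, differed by -0.705 ± 0.135 kb (SE; adjusted p = 0.00113 by limma). Pancreas regulators had 2 of 11 (median -0.278 kb). They were Mafa at -0.449 ± 0.0334 kb and Neurog3 at -0.625 ± 0.249 kb (SE; adjusted p = 2.27e-06 and 0.0455 by limma). Mafa, an insulin gene activator, was also the 1 list gene called after siMbd6, where it was higher by 0.266 ± 0.0334 kb (SE; adjusted p = 0.0133 by limma). That call was lost with equal covered length. Its p-value can also be too small, since Mafa was at 0 in all KO siNC libraries. Sclerotome and pharynx regulators had 5 of 9 (median -0.356 kb), with Foxc2 at -0.562 ± 0.153 kb (SE; adjusted p = 0.00833 by limma). B lineage genes had 4 of 7 (median -0.312 kb), with the early B cell factor Ebf1 at -0.594 ± 0.155 kb (SE; adjusted p = 0.00684 by limma). Every one of these medians was nearer 0 than the -0.418 kb over all windows. With equal covered length the calls became 8 lower and 6 higher over the 7 lists.

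No list gene of 74 tested was called after siNsun2, beside 0.0186% of all windows. In K562 cells none of 4 tested was called, beside 0.122% of all windows between KO and WT and 0% after either knockdown. In HSPCs 12 list genes passed the filter. None was called between KO and WT shNC, and 7 were higher after shMbd6 (4 with equal covered length), beside 72.1% of all 4242 windows called. Among them were Ikzf1, the lymphoid factor Ikaros, at 0.703 ± 0.122 kb (SE; adjusted p = 0.00151 by limma) and Irf4 at 0.531 ± 0.130 kb (SE; adjusted p = 0.00715 by limma). Both were at 0 in all KO shNC libraries, so these p-values can be too small. For the difference of the KO effect, 23 of 81 list members tested were lower with siNC and none was higher, beside 45% of all windows lower. With equal covered length 4 were lower and 3 higher. The 23 included Six3 at -1.17 ± 0.275 kb and Foxc2 at -0.882 ± 0.196 kb (SE; adjusted p = 0.00383 and 0.00269 by limma).

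Of the 9 members, 7 were covered in at least 9 of the 27 mouse H2AK119ub libraries (Pax2 in 7 and Pax3 in 5 were not). For these the genes most alike in covered kb per Mb were sought over the 27 libraries, which share lists, depth and experiment, so the correlations are a description. Pax7 was most like Jdp2 (Pearson's r = 0.96) and Krtap6-2 (0.95). Pax9 was most like Klhl34 (0.94) and Sparc (0.92). Pax1 was most like Sept11 (0.93) and Plekhg4 (0.92). Pax4 followed B4galt3 (0.94) and Gnai1 (0.91), Pax6 followed Prrt3 (0.90) and Slc5a8 (0.89), and Pax8 followed Tnfrsf12a and Thoc6 (both 0.91). Pax5 had the weakest likeness, to Cux2 (0.82) and Unc13d (0.80).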

How the data were processed

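CUT&Tag libraries of H2AK119ub (39) and BAP1 (2) were analysed from the peak lists that the authors deposited, 1 per library. Per the study's methods and processing notes the authors trimmed reads with Trimmomatic 0.39, aligned them with Bowtie2 2.4.1 to mm10 or hg38 together with Drosophila spike-in sequence, removed duplicates with Picard and called broad peaks with MACS2 (broad cutoff 0.01). The deposited lists give positions, a score (10 times −log10 q, truncated), a fold enrichment over local background, and −log10 p and −log10 q, all from the authors' MACS2 run. Spike-in scaling acts on signal and is not in the lists. Read depth is unknown.

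The kb of each TSS window (5 kb to each side) and the percent of each gene covered were computed for protein-coding genes on autosomes, X and Y (Python 3.11.15, NumPy 2.4.6, pandas 2.3.3, matplotlib 3.10.9; checked against bedtools 2.31.1). A gene entered the test where 3 or more H2AK119ub libraries of its experiment covered it. limma 3.58.1 (R 4.3.3) fitted every group of an experiment jointly, two-sided, Benjamini-Hochberg over all genes tested, threshold 0.05. The window test was run beforehand on data simulated from the siRNA mESC libraries. That simulation held no general difference in list length between groups, so it does not check calls made across such a difference. A stretch counted as present where at least 50% was covered. Groups came from the labels. All 9 PAX genes are named, with the 2 most alike genes per member (at least 100 kb away, no predicted genes) and at most 3 called genes per list and comparison. The members, lists and tests were chosen with earlier results of these data known. Alternatives were other scaling, filters, windows, peak thresholds, a log2 scale (offset 0.1 kb), a replicate block and leaving out each library.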

Additional observations from a re-analysis of the deposited data

Results flagged for a closer look

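The KO effect at 2 PAX windows differed between siNC and untransfected mESCs by the interaction term in limma. At Pax9 the difference was -0.665 kb (adjusted p = 0.00752; 0.000377 to 0.533 over the alternatives) and at Pax7 it was -0.448 kb (adjusted p = 0.0360; 0.00304 to 0.629 over the alternatives). All Pax9 and Pax7 values of KO siNC libraries were 0, and these libraries held 1.82 to 4.30 Mb of peaks. The part of list size in these differences was not tested beyond the scaling to equal covered length, under which neither was called.

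The BAP1 libraries of WT mESCs, which no comparison above used, held no peak in any PAX window. Of all windows 0.598% and 0.694% were covered in replicates 1 and 2. In BAP1 replicate 2, 1.39% of the Pax9 body was covered, and replicate 1 listed none. The series holds no control library for BAP1, and 2.69% and 2.98% of all gene bodies were covered in replicates 1 and 2.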

How the results depend on the processing

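Of 398 recomputed values for 31 member differences, 346 kept their direction and their side of the threshold, 28 lost a call, 12 gained one and 12 changed sign. For KO against WT with siNC, the count of PAX windows called went from 3 to 0 with equal covered length, to 1 of 4 tested with 2.5 kb to each side, and to 1 of 1 tested with peaks of −log10 q of at least 5. It ranged from 2 to 6 on leaving out a library, with 6 without WT siNC replicate 1. Pax7 was lost without WT siNC replicate 3 (adjusted p = 0.0836 by limma) and Pax9 with 2.5 kb (adjusted p = 0.0915 by limma). The count of bodies went from 7 to 2 with equal covered length and ranged from 5 to 7 on leaving out a library. For the difference of the KO effect, the count went from 2 to 0 with equal covered length, 4 with all annotated transcript starts and 1 of 3 tested with the stricter peaks, and ranged from 1 to 3 on leaving out a library.

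With equal covered length the sign changed for the KO siNC windows of Pax4 (0.209 kb), Pax5 (0.655 kb) and Pax8 (0.116 kb), for the bodies of Pax1 (2.71 points) and Pax6 (0.303 points), and for the difference of the KO effect at Pax4 (0.242 kb), Pax5 (0.782 kb) and Pax8 (0.102 kb). On the log2 scale Pax8 in untransfected KO against WT became -0.333. On leaving out a library it ranged from -0.0495 to 0.761 kb (lowest without KO replicate 3), Pax5 with siNC from -0.222 to 0.0712 kb (highest without KO siNC replicate 3), and the Pax6 difference of the KO effect from -0.231 to 0.0207 kb (highest without WT replicate 3). The cause was not tested. Over all windows 7755 were called with siNC, 4136 with equal covered length and 3107 to 7468 on leaving out a library. For the difference of the KO effect 6252 were called and 2386 with equal covered length.

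With the replicate number as a block, 3 windows and 6 bodies were called for KO against WT with siNC and 2 windows for the difference of the KO effect. The Pax8 body lost its call (adjusted p = 0.0558 by limma), and no other member called or uncalled changed. Deviations of same-numbered mESC libraries correlated at 0.00839 to 0.239 and those of HSPC and K562 libraries at -0.0374 to 0.0274. No comparison had every pair over 0.1, so the numbers were not taken as pairs. Members in HSPCs could be fitted only with no filter on low values, and some K562 settings left no member to test. Depth is unknown, so a stretch listed at 0 may be unmarked or under-sampled.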
